A study of Rattus norvegicus with 9 samples.

Results

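Transcripts of cholesterol synthesis, its regulators and cholesterol transport were measured in the livers of ageing rats. The genes were 28 named members of this pathway, taken by their symbol from a table of 23479 gene symbols, and all 28 were found and passed the filter on low counts that left 12778 genes for testing. The old group held 4 male Wistar rats of 24 months (old 1 to 4) and the young group 5 male Wistar rats of 6 months (young 1 to 5). Wistar is an outbred laboratory strain, the labels name no genotype or treatment for either group, and each library came from a different animal per the series design. Liver poly(A) RNA was sequenced, and the question was how liver transcripts differ between these ages.

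Animal cells build cholesterol from acetyl units by the mevalonate pathway, which also supplies isoprenoids, and the liver is a main site of this synthesis. The transcription factor SREBP2, encoded by Srebf2, switches on most of the enzyme genes when sterols are low. It is held in the endoplasmic reticulum by the sterol-sensing escort SCAP and the retention proteins INSIG1 and INSIG2, and is released for cleavage in the Golgi when sterols fall. Its active fragment binds sterol regulatory elements in promoters, commonly beside the factor NF-Y.

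Promoters of 23 of the 28 genes were listed in the RefSeq annotation of GRCr8, and Pmvk, Fdft1, Sqle, Stard4 and Soat2 had no entry. Stretches of 6 of them are printed to set the regulator gene itself beside enzyme genes of its pathway. Of these, Msmo1, Hmgcs1, Idi1 and Fdps had the old livers in the same order (old 3 highest, then old 1, old 4 and old 2), while Srebf2 and Lss each had another order. Each shows the 200 bases before the annotated start, 5′ to 3′ on the gene's own strand, and the capitals mark the SREBP element core TCACNCCA and the NF-Y box CCAAT on either strand. The stretches lie at chr7:115543107-115543306 (plus strand) for Srebf2, chr16:29746913-29747112 (plus) for Msmo1, chr2:53382104-53382303 (plus) for Hmgcs1, chr17:66547525-66547724 (minus) for Idi1, chr2:176804817-176805016 (minus) for Fdps and chr20:12118231-12118430 (minus) for Lss.
Srebf2: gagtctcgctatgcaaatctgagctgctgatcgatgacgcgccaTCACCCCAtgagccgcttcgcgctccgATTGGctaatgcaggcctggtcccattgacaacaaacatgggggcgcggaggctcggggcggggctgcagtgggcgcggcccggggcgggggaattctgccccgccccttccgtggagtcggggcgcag
Msmo1: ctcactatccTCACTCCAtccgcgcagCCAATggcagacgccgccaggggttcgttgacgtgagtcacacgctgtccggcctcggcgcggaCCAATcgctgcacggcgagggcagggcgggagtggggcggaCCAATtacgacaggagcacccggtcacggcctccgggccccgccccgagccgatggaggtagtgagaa
Hmgcs1: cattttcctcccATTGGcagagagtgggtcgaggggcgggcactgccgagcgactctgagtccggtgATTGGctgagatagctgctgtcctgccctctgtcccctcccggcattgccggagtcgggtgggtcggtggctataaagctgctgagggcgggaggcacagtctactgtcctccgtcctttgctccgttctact
Idi1: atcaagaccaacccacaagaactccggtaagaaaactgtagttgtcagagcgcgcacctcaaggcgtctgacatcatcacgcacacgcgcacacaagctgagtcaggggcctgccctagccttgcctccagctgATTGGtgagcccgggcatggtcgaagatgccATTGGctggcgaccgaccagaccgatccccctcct
Fdps: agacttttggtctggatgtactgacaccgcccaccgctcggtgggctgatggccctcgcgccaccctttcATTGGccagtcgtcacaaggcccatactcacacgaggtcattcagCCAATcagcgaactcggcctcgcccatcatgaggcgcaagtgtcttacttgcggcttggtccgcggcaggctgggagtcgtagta
Lss: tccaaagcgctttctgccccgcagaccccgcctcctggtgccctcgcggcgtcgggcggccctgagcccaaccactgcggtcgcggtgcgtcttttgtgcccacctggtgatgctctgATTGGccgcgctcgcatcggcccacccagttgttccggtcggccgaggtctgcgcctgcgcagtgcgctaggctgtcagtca

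The exact letters TCACNCCA stood in 2 of the 23 promoters (8.7%), those of Srebf2 and Msmo1, against 3.89% of the 33469 promoters in the table and 3.68% of those of 18999 protein-coding genes. In Srebf2 they began 156 bases before the start, with an NF-Y box beginning 129 bases before it. The NF-Y box itself stood in 17 of 23 promoters (73.9%), against 37.5% of all promoters and 38.4% of protein-coding ones. At least 2 NF-Y boxes stood in 11 of the 23 (47.8%), against 12.4% of protein-coding promoters. The GC box GGGCGG was present in 19 (82.6%, against 33.1% of all and 43.1% of protein-coding promoters) and the E-box CACGTG in 4 (17.4%, against 6.42% and 7.26%). Both strands were searched over 250 bases before and 50 after the start, and 0 pairs of different motifs overlapped in these genes. A match describes the letters only.

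**Figure D1:**
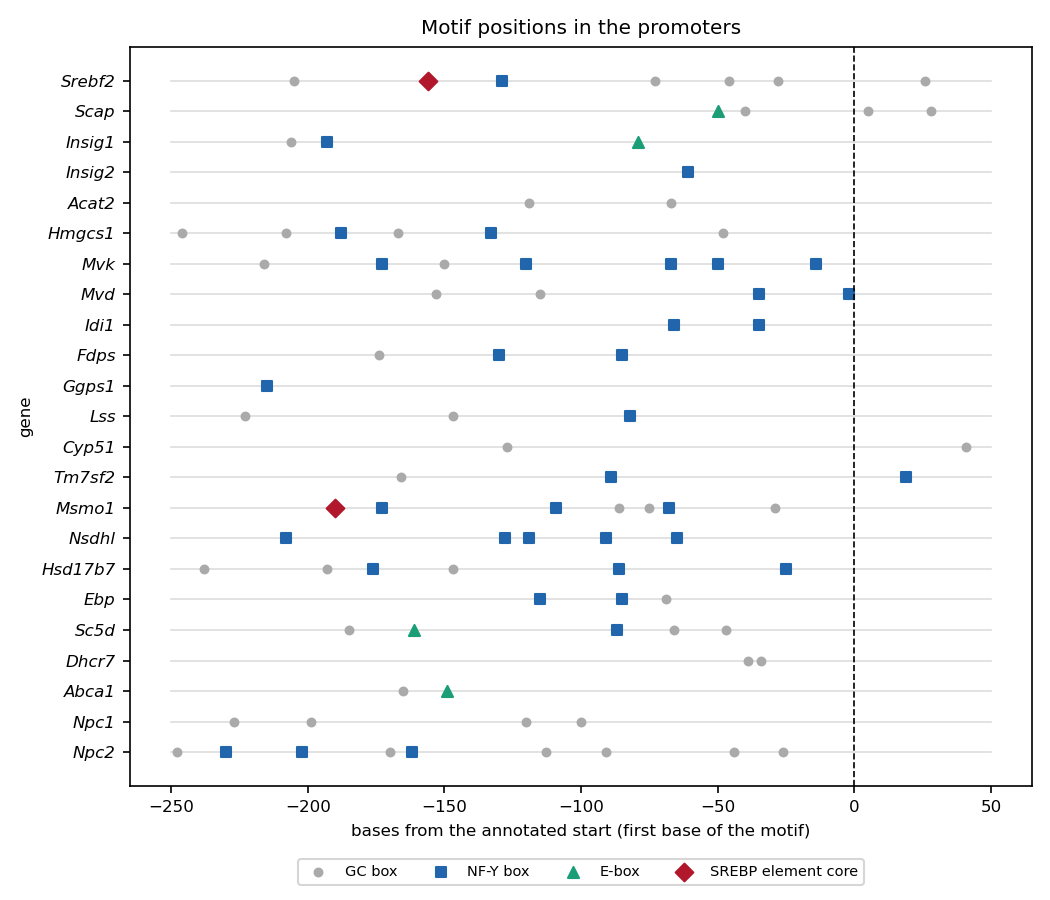
Positions of motifs in the 23 promoters, 1 row per gene, by the distance of the motif's first base from the annotated start in bases (dashed line: start). Blue squares (NF-Y box) stand in 17 rows, green triangles (E-box) in 4 and the red diamonds (SREBP element core) in the rows of Srebf2 and Msmo1.

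The libraries held 18586798 to 32882704 counts in old livers and 18942191 to 25215805 in young livers, and the lowest count of any cholesterol gene in any library was 148. The 10 hepatocyte markers, albumin and transferrin among them, summed to 214429 to 329005 CPM (counts scaled by library size with TMM factors) in old livers and 181896 to 202882 CPM in young livers. Single libraries stood apart in other genes. All counts of old 1, the library with the largest total, were even, and the sources used here do not say why. Halved, its total would be 16441352, the lowest of the 9, and its Abcg8 count 3. The 6 Kupffer cell markers summed to 56.3 CPM in old 1, 589 in old 3 and 237 and 309 in old 2 and old 4, against 109 to 286 CPM in young livers, and the 3 neutrophil markers summed to 150 CPM in old 3 and to 0.330 to 0.594 CPM in the young group. Cyp2c12, a female-biased gene of rat liver, had 2054 CPM in old 4, 22.2 to 60.9 CPM in the other old livers and 6.14 to 19.6 CPM in young livers. The male-biased genes Cyp2c11 and Cyp2c13 summed to 4593, 3281, 1488 and 313 CPM in old 1 to 4 and to 4397 to 5148 CPM in young livers, so that old 3 and old 4 were the lowest of the 9. The 9 heart muscle markers summed to 85.7 to 112 CPM in young 2 to 5 and to at most 0.381 CPM in young 1 and the old livers. A count per liver does not tell fewer cells of a type from less RNA per cell.

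No cholesterol gene passed edgeR's quasi-likelihood test between the ages after Benjamini-Hochberg adjustment over all genes tested (0 of 28 under 0.05), where 1.00% of all genes passed (0.657% higher and 0.344% lower in old livers). Limma-voom called 0 of 28 as well, against 0.532% of all genes. An unadjusted p under 0.05 was found for 7 of the 28 (25%, against 15.9% of all genes). These were Pmvk, Sc5d, Npc2, Scap and Cyp51 on the higher side, where 8.94% of all genes lay, and Lss and Npc1 on the lower side, where 6.96% lay. The count of 7 depended on single libraries. It was 16 without old 2 (where 16.9% of all genes had such a p), 10 without old 4 (16.8%) and 4 without old 3 (17.3%). On the higher side alone it was 14 without old 2 (9.13% of all genes), 8 without old 4 (9.79%) and 2 without old 3 (9.90%). It was 3 there without young 1 (7.56%), young 4 (6.93%) or young 5 (7.44%).

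The split of 5 higher and 2 lower also depended on the fit. With library totals only 3 genes had such a p (24.7% of all genes), of which 1 was on the higher side (3.81%). Without old 3 and old 4 together it was 6 (20.7%), with 1 on the higher side (11.5%) and 5 on the lower side (9.17%). Old and young livers did not overlap for 3 genes (10.7%, against 6.53% of all genes), Sc5d on the higher side (3.40% of all genes) and Lss and Npc1 on the lower side (3.12%). DESeq2 called these same 3 genes (adjusted p = 0.0344 for Sc5d, 0.00385 for Lss and 0.0205 for Npc1), in a run that called 5.13% of all genes (3.02% higher and 2.11% lower).

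As a list, 23 of the 28 genes had a log2 fold change above 0 (82.1%, against 51.2% of all genes), and their median was 0.21, against 0.01 over all genes tested. The median was 0.34 without old 2, 0.15 without old 1 and 0.15 without old 3. With library totals as the only scaling the median over all genes moved to -0.17, the median of the list was 0.04 and 16 of 28 genes lay above 0.

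**Figure D2:**
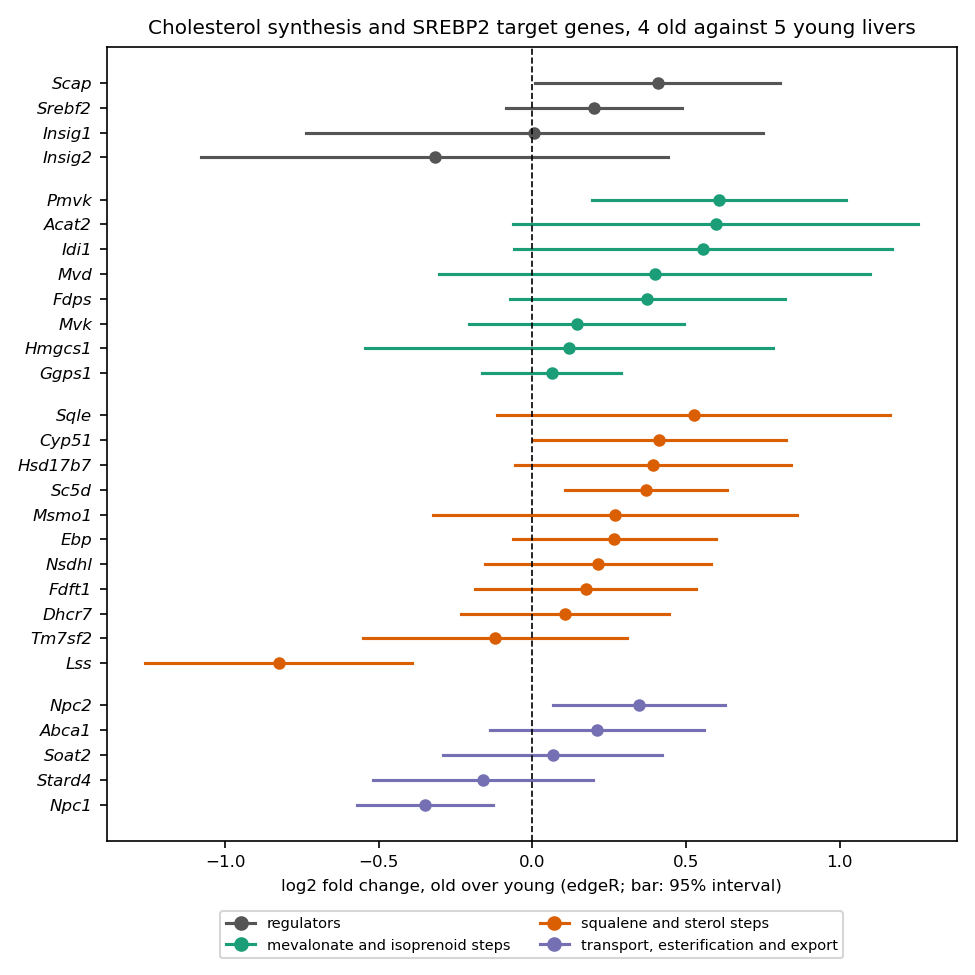
Log2 fold change of each of the 28 genes, old over young, from edgeR's fit (points) with its 95% interval (bars), in blocks by role. Most points lie to the right of 0, Lss at -0.83 and Npc1 at -0.35 lie to the left with intervals that leave out 0, and the widest intervals belong to Insig1 and Insig2.

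The regulators came first. Srebf2 stood at 114, 84.5, 113 and 106 CPM in old 1 to 4 and at 82.1, 87.2, 77.8, 99.0 and 109 CPM in young 1 to 5. Old 2 and old 4 lay inside the young range and the groups overlapped (log2 fold change 0.20 ± 0.13 SE, edgeR adjusted p = 0.475). Scap, the sterol-sensing escort, had 122, 96.1, 184 and 101 CPM in old livers and 92.4, 86.9, 106, 101 and 87.9 CPM in young livers, with old 3 and old 1 above every young liver (0.41 ± 0.18, adjusted p = 0.305).

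The INSIG genes had old livers on both sides of the young range. Insig1, itself an SREBP2 target that closes a feedback loop, had 139, 96.1, 283 and 333 CPM in old livers and 252, 213, 246, 155 and 193 CPM in young livers. Old 1 and old 2 lay below all young livers and old 3 and old 4 above all of them, so the group means were nearly equal, at 213 ± 113 CPM (SD, n = 4 old) and 212 ± 39.9 CPM (SD, n = 5 young). Insig2, which serves the same retention step and is known to respond to insulin in the liver, had 591, 518, 170.2 and 207 CPM in old livers and 439, 458, 492, 419 and 508 CPM in young livers. Here old 1 and old 2 were the highest of all 9 livers and old 3 and old 4 the lowest. The count of Insig1 divided by that of Insig2, which needs no scaling between libraries, was 0.235, 0.186, 1.66 and 1.61 in old 1 to 4 and 0.370 to 0.576 in young livers. This ratio was chosen after the opposite orders of the 2 genes were seen and carries no test. The tests of group means gave adjusted p = 0.994 for Insig1 and 0.671 for Insig2 (edgeR), and the 95% intervals of the log2 fold change ran from -0.74 to 0.75 and from -1.08 to 0.44.

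The early steps, from acetyl-CoA to isoprenoids, had 8 of 8 genes above 0 and 0 past the test, with a median log2 fold change of 0.39. Pmvk, phosphomevalonate kinase, had 80.3, 51.5, 77.6 and 47.9 CPM in old livers and 35.3, 45.5, 47.1, 49.8 and 33.6 CPM in young livers. All old livers but old 4 lay above every young liver (0.61 ± 0.19, adjusted p = 0.154). Acat2, the cytosolic thiolase that joins acetyl-CoA units, stood at 102, 43.5, 141 and 65.4 CPM in old livers and at 42.0, 63.8, 65.4, 55.2 and 64.4 CPM in young livers. Old 1 and old 3 were the highest, and old 2 was close to the lowest young liver (0.60 ± 0.30, adjusted p = 0.363). For Idi1, which isomerises the isoprene unit, the values were 159, 73.6, 186 and 88.5 CPM in old livers and 66.8, 114, 79.0, 74.2 and 96.9 CPM in young livers. The order within the old group was the same as for Acat2 (0.56 ± 0.28, adjusted p = 0.363). Idi1 overlaps Wdr37 in the annotation, so its counts may hold reads of that gene.

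Hmgcs1, the cytosolic HMG-CoA synthase at the entry to mevalonate, had 1305, 549, 1781 and 836 CPM in old livers and 809.9, 1307, 946, 952 and 1133 CPM in young livers. Old 3 was the highest of all and old 2 the lowest, a 3.25-fold range within the old group against 1.61-fold among young livers. The means were 1118 ± 541 CPM in old and 1029.6 ± 193 CPM in young livers, and the 95% interval of the log2 fold change ran from -0.55 to 0.78. Mvd, mevalonate diphosphate decarboxylase, had 34.2, 11.4, 44.0 and 21.1 CPM in old livers and 18.1 to 24.7 CPM in young livers, the widest old range of the list at 3.85-fold. Fdps, farnesyl diphosphate synthase, averaged 536 ± 174 CPM in old and 414 ± 40.3 CPM in young livers (adjusted p = 0.396). Mvk, mevalonate kinase, averaged 36.3 ± 7.69 and 32.9 ± 5.18 CPM in old and young livers. Ggps1, which branches off to geranylgeranyl groups rather than sterols, had the narrowest range of the list among old livers, at 8.51 to 9.24 CPM in old and 7.70 to 9.49 CPM in young livers.

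Among the 11 squalene and sterol enzymes 9 lay above 0, with a median of 0.27, and Lss was the one farthest below 0. Lss, lanosterol synthase, closes the sterol rings and works directly after squalene epoxidase. It had 56.2, 92.5, 87.8 and 45.3 CPM in old livers and 124, 127, 133, 117 and 123 CPM in young livers. Every old liver lay below every young liver, with means of 70.4 ± 23.3 and 125 ± 5.73 CPM (SD, n = 4 old and 5 young). The log2 fold change was -0.83 ± 0.20, which is 0.564 times the young level, and edgeR's adjusted p was 0.0811. It was 0.0430 without old 2 (where 1.55% of all genes passed), 0.0328 with library totals only (where 2.19% passed), and up to 0.179 when another library was left out.

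The neighbours of Lss in the pathway did not share its order of livers. Sqle, squalene epoxidase, had 134, 53.7, 151 and 65.1 CPM in old livers and 59.3, 80.7, 71.8, 62.1 and 77.0 CPM in young livers, with old 1 and old 3 above every young liver and old 2 below them. The count of Lss divided by that of Sqle was 0.420, 1.72, 0.580 and 0.696 in old 1 to 4 and 1.58 to 2.08 in young livers. Old 2 lay in the young range and the other old livers were below it. Against Cyp51, the next enzyme, the ratio was 0.0947, 0.219, 0.106 and 0.0910 in old livers and 0.265 to 0.325 in young livers, with no overlap. These ratios were chosen after the values were seen and carry no test.

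Cyp51, lanosterol demethylase, stood at 594, 423, 831 and 497 CPM in old livers and at 380, 474, 482, 399 and 465 CPM in young livers, with all old livers but old 2 above the young ones (0.41 ± 0.19, edgeR adjusted p = 0.314). Sc5d, lathosterol oxidase, had 409, 413, 504 and 419.6 CPM in old livers and 331, 382, 373, 295 and 308 CPM in young livers. The groups did not overlap, and old 3 stood above the other old livers (0.37 ± 0.12, adjusted p = 0.171). Hsd17b7, the 3-ketosteroid reductase of the pathway, had 49.0, 31.5, 66.8 and 53.6 CPM in old livers and 34.5, 48.8, 34.5, 31.6 and 41.9 CPM in young livers, so that old 2 was just below the lowest young liver (0.39 ± 0.20, adjusted p = 0.377).

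The remaining sterol enzymes overlapped between the ages. Msmo1, the methylsterol oxidase, had 306, 134, 335 and 179 CPM in old livers and 160 to 245 CPM in young livers. Nsdhl, which removes a carboxyl group from the sterol ring, averaged 541 ± 120.1 CPM in old and 467 ± 63.5 CPM in young livers. Ebp, the sterol isomerase, averaged 181 ± 41.9 and 151 ± 12.7 CPM in old and young livers, and Fdft1, squalene synthase, 282 ± 46.9 and 249.9 ± 46.5 CPM. Dhcr7, the last reductase before cholesterol, ran from 128 to 215 CPM in old and from 142 to 189 CPM in young livers. Tm7sf2, a sterol reductase, had a log2 fold change of -0.12 ± 0.19 and unlike most enzymes was highest among old livers in old 4, at 182 CPM. The adjusted p lay between 0.413 and 0.782 for these 6 genes.

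The lysosomal cholesterol exporters lay on opposite sides of 0, and neither passed the test. Npc1, the membrane protein that lets cholesterol leave the lysosome, had 117, 111, 89.8 and 111 CPM in old livers and 127, 146, 129, 141 and 141 CPM in young livers, without overlap (-0.35 ± 0.10, edgeR adjusted p = 0.131). With library totals only its adjusted p was 0.0376, in a fit where 2.19% of all genes passed, 72 higher and 208 lower. Npc2 is the soluble protein that hands cholesterol to NPC1. It had 105.3, 96.9, 140.3 and 124 CPM in old livers and 104.6, 84.6, 99.1, 83.7 and 86.9 CPM in young livers. Old 3 and old 4 lay above the young range, old 1 just above its top and old 2 within it (0.35 ± 0.13, edgeR adjusted p = 0.222). The count of Npc1 divided by that of Npc2 was 1.11, 1.15, 0.640 and 0.894 in old 1 to 4 and 1.22 to 1.72 in young livers, so every old liver was below every young one. This ratio too was chosen after the values were seen. In the annotation Npc1 overlaps Rmc1, a protein-coding gene, and reads of overlapping genes on opposite strands could not be told apart with this library kit.

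For the other transport genes the groups overlapped. Abca1, which loads cholesterol onto apolipoprotein A-I, averaged 71.7 ± 15.4 CPM in old and 62.0 ± 9.09 CPM in young livers. Soat2, which esterifies cholesterol in hepatocytes, averaged 49.1 ± 10.6 and 46.9 ± 7.88 CPM, and Stard4, a sterol carrier and SREBP2 target, 41.3 ± 9.69 and 46.2 ± 6.74 CPM in old and young livers. The 95% intervals of their log2 fold changes were -0.14 to 0.56, -0.29 to 0.42 and -0.52 to 0.20.

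**Figure D3:**
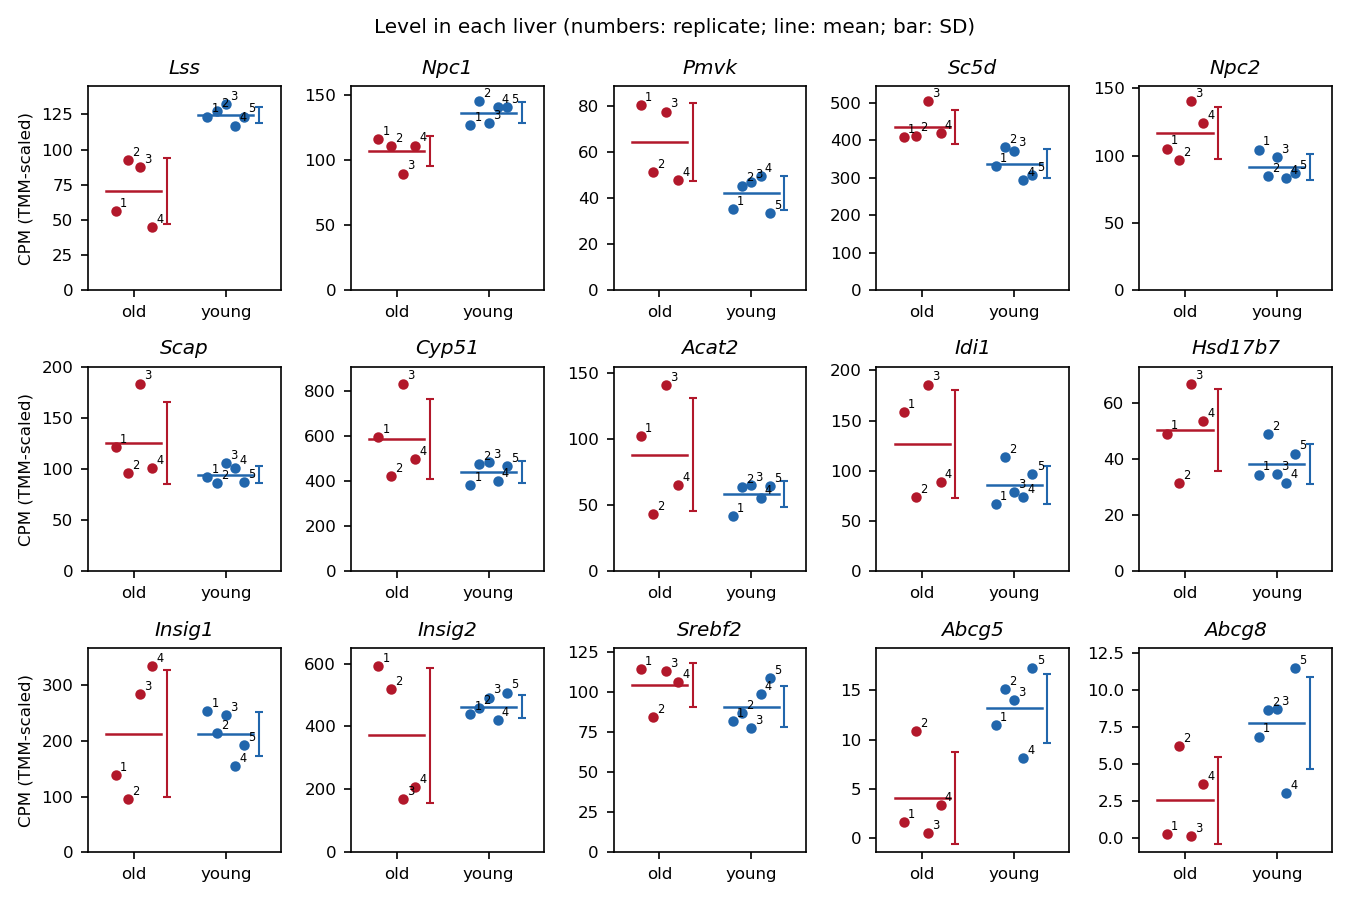
CPM in each liver for the 10 cholesterol genes with the smallest p, the remaining regulators Srebf2, Insig1 and Insig2, and the sterol exporters Abcg5 and Abcg8 (dots numbered by replicate, old left in red, young right in blue, line: mean, bar: SD, n = 4 and 5). Lss, Npc1 and Sc5d show no overlap between the ages, and Insig1 and Insig2 show old livers on both sides of the young ones.

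The spread among animals of 1 age was compared next. The SD of log2 CPM was larger among old than among young livers for 25 of the 28 genes (89.3%, against 73.5% of all genes), with a median of 0.40 in old and 0.19 in young livers, against 0.29 and 0.19 over all genes. With any 1 old library left out, 23 to 27 of the 28 genes had the larger SD in old livers. The share over all genes was not computed for these cases. Of the 19 enzymes from Acat2 to Dhcr7, old 3 was above all young livers for 15 (78.9%, against 25.1% of all genes) and old 1 for 13 (68.4%, against 31.7%). Old 4 was above them for 5 (26.3%, against 22.7%) and old 2 for 2 (10.5%, against 22.2%). Old 2 was below all young livers for 11 of the 19, where 23.3% of all genes were.

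Across all 9 livers, old 3 held the highest value for 12 of the 19 enzymes (63.2%, against 15.5% of all genes) and old 1 for 4 (21.1%, near the 23% of all genes). The lowest value was in old 2 for 9 enzymes (47.4%, against 11.4% of all genes) and in young 1 for 6 (31.6%, against 8.87%). Set against each gene's mean over the 9 livers, the median enzyme stood at 0.36, -0.36, 0.61 and -0.02 on the log2 scale in old 1 to 4 and between -0.28 and 0.04 in young livers. Old 3, highest in the enzymes, also had the highest sums of hepatocyte, Kupffer cell, neutrophil, red cell and T and natural killer cell markers. Old 1, the next in the enzymes, had the lowest Kupffer sum. The 3 red cell markers summed to 1345, 475, 1943 and 1094 CPM in old 1 to 4 and to 66.2 to 377 CPM in young livers. By edgeR 2 of the 3 were called higher in old livers, against 0.657% of all genes. The red cell sums followed the order of the median enzyme among old livers, as was noticed only after the values were seen. The neutrophil sum had this order as well, and the sums of the other marker sets did not. Among these, the endothelial cell sum was highest in old 2 and lowest in old 1. The hepatocyte sum was 305883, 276595, 329005 and 214429 CPM in old 1 to 4, highest in old 3, next in old 1 and lowest in old 4. All of these lay above the 181896 to 202882 CPM of young livers. The 7 T and natural killer cell markers summed to 11.5, 8.40, 27.7 and 5.65 CPM in old 1 to 4, all above the 2.96 to 4.34 CPM of young livers. Of the 6 that were tested, edgeR called 0. How often such sums do not overlap between the ages was not computed. The part of these cells in the enzyme levels was not tested. The enzymes are counted here as genes of 1 pathway and not as replicates.

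**Figure D4:**
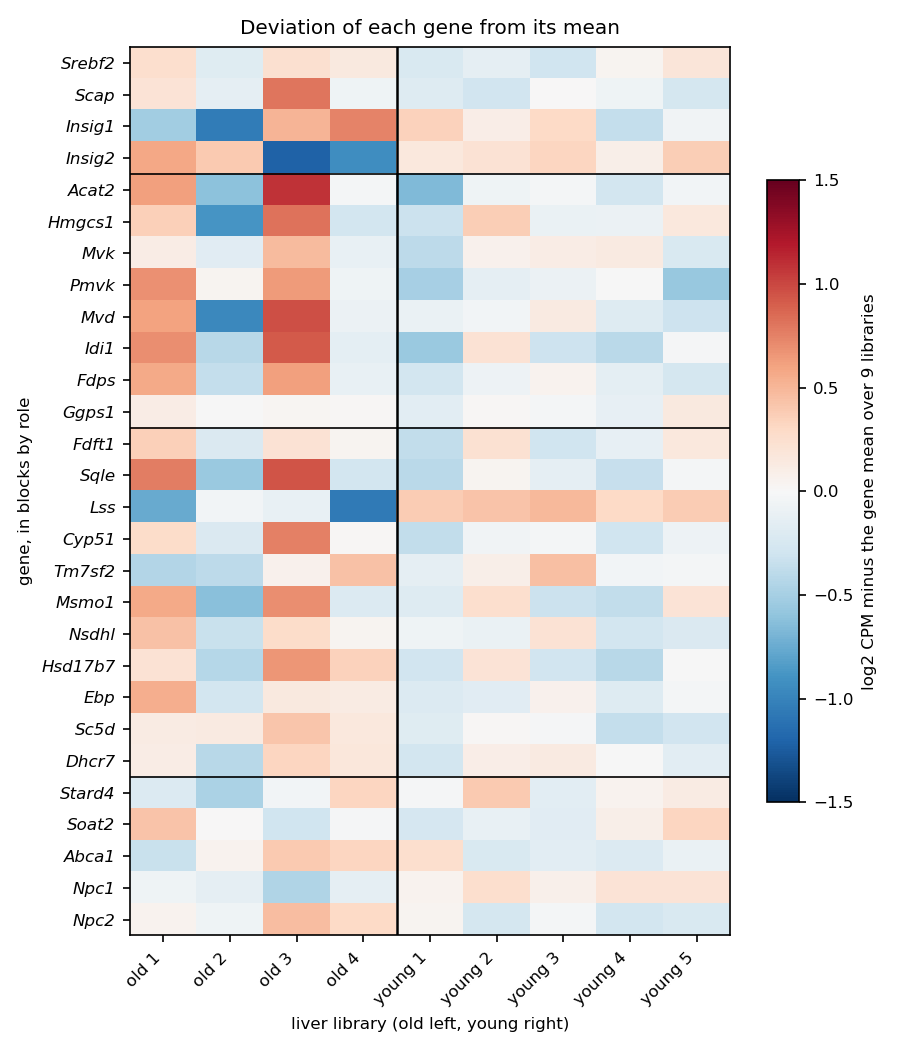
Log2 CPM of each cholesterol gene (rows, in blocks by role) in each liver (columns, old left of the black line, young right) minus the gene's mean over the 9 livers (red above, blue below). Most enzyme rows are red in old 1 and old 3 and blue in old 2, Lss is bluest in old 4 and old 1, and Insig1 and Insig2 show opposite colours across the old livers.

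Other genes of cholesterol handling were taken from a list of 49 symbols, of which 47 were in the table and 46 were tested. By edgeR 0 of 46 passed, 7 had an unadjusted p under 0.05 (15.2%, against 15.9% of all genes), and their median log2 fold change was 0.04. Por, the electron donor to Cyp51 and to squalene epoxidase, had 79.7, 62.2, 98.3 and 71.4 CPM in old livers and 109, 123, 103, 108 and 106 CPM in young livers, with no overlap (-0.50 ± 0.13, adjusted p = 0.105). Its adjusted p was 0.0368 without old 3, 0.0328 with library totals only (where 2.19% of all genes passed) and 0.0157 by DESeq2 (5.13%). Stard5, a cytosolic sterol carrier, averaged 36.6 ± 4.64 CPM in old and 26.8 ± 4.36 CPM in young livers (edgeR adjusted p = 0.15). Rdh11, a retinol dehydrogenase gene regulated by SREBPs, averaged 61.4 ± 7.87 and 49.0 ± 5.16 CPM (adjusted p = 0.208), and Lipa, the lysosomal acid lipase that frees cholesterol from esters, 331 ± 124 and 217 ± 36.3 CPM in old and young livers (adjusted p = 0.234).

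The genes Abcg5 and Abcg8 were picked from that list after their values were seen. ABCG5 and ABCG8 form the pump that secretes sterols into bile. Abcg5 had 1.62, 10.9, 0.554 and 3.37 CPM in old livers and 8.16 to 17.2 CPM in young livers. Old 1 and old 3, the livers with most enzyme transcripts above the young range, were the lowest. Old 4 was also below all young livers and old 2 was within their range (-1.72 ± 0.67, edgeR adjusted p = 0.262). The adjusted p was 0.0298 without old 2, where 1.55% of all genes passed. Abcg8 had 6, 108, 2 and 90 counts in old livers and 62 to 233 counts in young livers, with the same 2 old livers at or near the floor of 3 counts. Its log2 fold change was -1.65 ± 0.90 (edgeR adjusted p = 0.408). The exporter Abcg1 had 3.67, 8.80, 13.8 and 5.90 CPM in old livers and 4.33 to 9.38 CPM in young livers. Abca1 had 51.8, 67.7, 85.9 and 81.3 CPM in old livers and 55.7 to 77.8 CPM in young livers. For both, old 1 was the lowest of the 9 livers and old 3 the highest. A link between export and enzyme levels was not tested.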

How the data were processed

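The deposited values are whole-number counts for each gene symbol and animal, and the authors applied no normalization to them. Per the labels' protocols the libraries came from poly(A) RNA by a TruSeq v2 protocol that keeps no strand information. Reads were aligned with BWA, per the submitters' processing notes; its version, the genome build, the annotation and the counting of shared reads are not given in the sources used here, so genes with near-identical copies would be uncertain.

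Genes were filtered with filterByExpr (minimum count 10, total 15), libraries scaled with TMM, and old compared with young by edgeR's two-sided quasi-likelihood F test over all 9 libraries. Intervals (95%) cover the model's error; floors (3 counts, 0.106 to 0.173 CPM by library) cover counting error only, since PCR copies are not independent molecules. SE is the log2 fold change divided by the root of F. Figures were drawn with matplotlib 3.10.9 in Python 3.11.15, and the tests ran in DESeq2 1.42.0, limma 3.58.1 and edgeR 4.0.16 under R 4.3.3. The fit was also run on simulated counts with the same dispersion for every gene. That run does not show how the fit behaves with the unequal spreads of these livers. Alternatives were other scalings and filters, DESeq2, limma-voom, a replicate block, old 1 halved, and libraries left out. The members and lists were chosen with earlier results of these data known. Named were all members, in every library the 10 with the smallest p and the regulators, and the 4 other genes with the smallest p. Hmgcs1, Mvd, Sqle, Msmo1, Abca1 and Abcg1 were given per library after their values were seen. RefSeq GRCr8 gave symbol spellings (16431 of 23479 symbols matched), overlaps and promoters. Results for some genes of these lists are not reported here.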

Additional observations from a re-analysis of the deposited data

Results flagged for a closer look

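Of 68 sets of values (34 genes in 2 groups), 3 had a library whose gap to its nearest neighbour was a large part of the group's range by Dixon's 95% criterion, which chance exceeds in about 1 of 20 groups. Sc5d in old 3 was the highest old value at 504 CPM, with the next at 419.6 CPM. Abca1 in young 1 was at 77.8 CPM, with the next young liver at 61.1 CPM. Por in young 2 was at 123 CPM, with the next young liver at 109 CPM.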

How the results depend on the processing

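Over 20 alternatives the number of cholesterol genes called was 0 except under 3. DESeq2 called 1 higher (Sc5d) and 2 lower (Lss and Npc1), library totals only called 2 lower (Lss and Npc1), and leaving out 1 library gave 0 higher and 0 to 1 lower (Lss, without old 2). Among the other cholesterol handling genes 1 was lower with library totals only and 1 by DESeq2 (Por in both), and 0 to 1 with a library left out (Abcg5 without old 2, Por without old 3). Over all genes 84 were higher and 44 lower in the main fit. The counts were 386 and 269 by DESeq2, 41 and 27 by limma-voom, and 27 and 16 with the replicate block. The fit with young 1 alone against the old livers assumes that young 1 varies like them, so only its log2 fold changes are given below. Lower genes numbered 208 with library totals only and 26 without old 3 and old 4 together. With 1 library left out, 20 to 115 were higher and 10 to 86 lower. Higher genes numbered 20 to 51 without old 1 or any young library, and lower genes 10 to 21 without old 1, old 4 or any of young 2 to 5 and 86 without old 2. The share of calls that were higher was 65.6% with TMM and 25.7% with library totals only.

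The median of the list lay between 0.04 and 0.39 in all fits, the latter with young 1 alone. The log2 fold changes of 10 genes turned sign in some fits, all with adjusted p of at least 0.100. For Insig1, at 0.01, it was -0.14 with library totals only, -0.0086 with upper-quartile factors, -0.00092 without a filter, -0.16 by limma-voom, -0.19 with the replicate block, -0.86 without old 3 and old 4, -0.24 with young 1 alone, and -0.29 to 0.25 with 1 library left out. With library totals only it was -0.069 for Hmgcs1, -0.036 for Mvk, -0.11 for Ggps1, -0.0056 for Fdft1, -0.069 for Dhcr7 and -0.11 for Soat2. Without old 3 and old 4 it was 0.25 for Insig2, -0.16 for Hmgcs1, -0.10 for Dhcr7 and -0.057 for Abca1. Hmgcs1 was at -0.0088 by limma-voom, and with young 1 alone Tm7sf2 was at 0.10 and Abca1 at -0.11. With 1 library left out the range was -0.20 to 0.34 for Hmgcs1, -0.0038 to 0.22 for Mvk and -0.086 to 0.17 for Soat2. The cause was not tested. The deviations of same-numbered old and young animals correlated at r = -0.10, 0.10, 0.31 and -0.17 for numbers 1 to 4. So few values cannot settle whether the numbers pair the animals. Old 3 alone correlated best with its own number. Among the cholesterol genes the block changed no call, and 3 had an unadjusted p under 0.05 (11.6% of all genes), 1 of them higher (6.17%).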

Other observations

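Other gene groups of the pathway had means close to each other in both ages. The SREBP proteases Mbtps1 and Mbtps2 averaged 73.0 ± 3.73 and 9.41 ± 0.987 CPM in old livers, against 74.8 ± 2.65 and 9.01 ± 0.609 CPM in young livers. Of the 10 genes of the isoprenoid branches, which make dolichol, ubiquinone side chains and prenylated proteins, 0 had an unadjusted p under 0.05 by edgeR and their median log2 fold change was -0.01. Mbtps1 and Mbtps2 were named after their values were seen.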
